A study of Mus musculus with 12 samples.

Results

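Collagens, laminins, integrins and the Adamts proteins build, anchor and cut the extracellular matrix. Binding sites of the nuclear receptor Rev-Erbα were examined at the genes of these 4 families in the brown fat of mice kept in the cold or at thermoneutrality. A site belonged to the set by the gene that the authors' annotation gave it, the gene with the nearest transcription start site (TSS). That gene had to be named as a collagen chain or a laminin chain, or to carry an integrin or Adamts name. Among the listed sites, membership therefore rested on names and on no measured value. The families themselves were chosen with earlier results of these data known. The rule took 156 of the 11227 sites of the 4 °C list and 39 of the 2183 sites of the 29 °C list, which is 195 of 13410 entries in all. Sites in both lists were counted once in the 161 separate sites, and 49 genes were named by them. The 22 genes named in the 29 °C list were all named in the 4 °C list as well.

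Type IV collagen and laminins form the basement membrane, a thin sheet that wraps each adipocyte and each capillary of fat tissue. Fibrillar collagens and type VI collagen lie outside that sheet and carry tension. Integrins are paired receptors, each of an alpha and a beta chain, that hold cells to these proteins, and Adamts proteases cut matrix proteins or trim procollagens. Rev-Erbα, encoded by Nr1d1, is a repressor of the circadian clock that recruits corepressors to DNA. Binding near a gene does not show whether the gene's expression changed.

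The study placed C57BL/6 mice for 1 week at 4 °C, labelled as chronic cold, or at 29 °C, labelled as thermoneutral. Chromatin of brown adipose tissue was pulled down with HA magnetic beads and sequenced (ChIP-seq). HA-RevErba mice, whose Rev-Erbα carries an HA tag, gave 4 libraries at 4 °C and 4 at 29 °C, and wild-type (WT) mice, which have no tag and serve as background, gave 2 at 4 °C and 2 at 29 °C. Age, sex, time of day, the way the tag was introduced and whether a library is 1 animal were not stated in these sources. Libraries held 27.0 to 37.3 M aligned reads (M, mega), and their ranges overlapped between all 4 groups.

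Each binding value belongs to 1 of 4 pools, described as pooled by the authors, so no value has a replicate and no p-value could be made between temperatures. The unit is FPKM, the reads per kilobase of a 200 bp window per M reads of the pool, and it is a read density on DNA and not a level of RNA. Pool sizes, worked out from the value that 1 read adds, were 63.8 M reads for HA-RevErba in the cold, 60.8 M for HA-RevErba at 29 °C, 27.1 M for WT in the cold and 25.1 M for WT at 29 °C. These are lower than the summed aligned reads of the libraries, which were 128 M for HA-RevErba in the cold, 124 M for HA-RevErba at 29 °C, 61.9 M for WT in the cold and 63.4 M for WT at 29 °C. The sources used here do not say which reads or libraries a pool keeps. Ratios of 4 °C to 29 °C carry exact 95% Clopper-Pearson intervals from the reads, which cover counting error only. A site was called above or below 1 when this interval left out 1. The whole tissue was used, so more cells with a bound site and more binding per cell cannot be told apart, nor which cell type a site belongs to.

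At 2 gene pairs of the set the start sites nearly coincide, and sites there carry the name of one gene while the annotation places them in the other. The bases between the starts are shown for that reason. Both stretches are on the plus strand of the RefSeq promoter table for build GRCm38.p6, with the first base of each transcript in capitals. Col4a2 is read to the right from the first capital and Col4a1 to the left from the last one, so the 22 bases shown lie in both transcripts (chr8:11312805-11312826). Itgb1bp1 is read to the left from the first capital and Cpsf3 to the right from the last one (chr12:21286284-21286297).
Col4a2 and Col4a1 starts: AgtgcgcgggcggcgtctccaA
Itgb1bp1 and Cpsf3 starts: CcagttccttaacC

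Rev-Erbα sites were found at members of each family, most of all at collagens. Collagen genes had 68 sites in the 4 °C list and 18 in the 29 °C list. Adamts genes had 39 at 4 °C and 8 at 29 °C, laminin genes 25 at 4 °C and 7 at 29 °C, and integrin genes 24 at 4 °C and 6 at 29 °C. Of the 110 protein-coding genes of the gene table that the names cover, 49 had a 4 °C site, or 44.5% (95% interval 35.1 to 54.3), against 21.8% of the 21031 protein-coding genes. At 29 °C the share was 20% (13.0 to 28.7) of the family genes against 6.3% of all. Sites were assigned to genes by distance, and gene length and the room around genes were not matched between these groups. As the families were chosen with earlier results known, these shares are descriptions only. By family, a 4 °C site was found at 7 of 11 laminin genes, 13 of 24 Adamts genes, 12 of 31 integrin genes and 17 of 44 collagen genes. The 31 integrin genes include 5 that carry an integrin name but encode no subunit. Of these 5, only Itgb1bp1 had a site, with 3 in the 4 °C list, and it is counted with the integrins throughout. The other 61 genes had no site in either list.

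Many of these genes had several sites. Of the 49 genes, 26 had 3 or more 4 °C sites, or 53.1% (38.3 to 67.5), against 23.7% of the 5451 genes named in that list. The median was 3 sites per gene, against 1 over all genes of the list. Col4a2 had 17, a number that a single gene of the list exceeded, with 21. Col4a1 and Adamts2 had 9 each, Adamts15 had 7 and Lama4 had 6, while Col5a1, Col6a2, Col6a3, Col15a1, Col18a1 and Adamts5 had 5 each. Sites of 1 gene share a locus and are not replicates of each other.

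**Figure D1:**
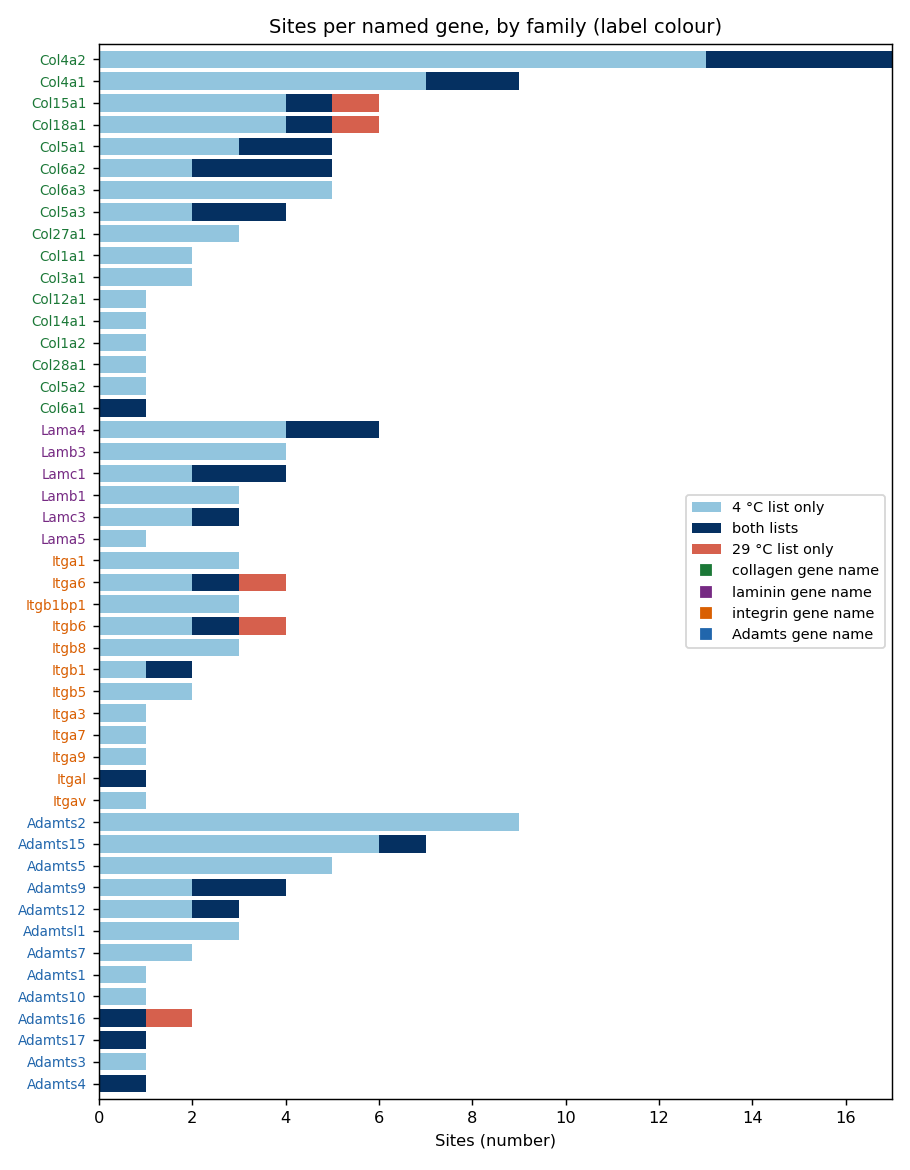
Number of sites (horizontal axis) at 48 of the named genes, grouped by family through the colour of the gene name; bar parts are sites in the 4 °C list only, in both lists and in the 29 °C list only. Col4a2 stands out with 17 sites of which 4 are in both lists, while 5 genes (Col15a1, Col18a1, Itga6, Itgb6 and Adamts16) have 1 site each in the 29 °C list only.

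The sites lay mostly inside genes and away from promoters. Introns held 59.6% of the members and 47.8% of all 4 °C sites, and intergenic DNA held 35.9% and 44.3%. Promoters held 2 member sites, or 1.28%, against 3.82% of all sites. The median distance to the TSS was 39.1 kb for members and 27.5 kb for all sites. Adamts sites were the farthest, with a median of 67.6 kb, and integrin sites the nearest, with 24.3 kb. In the 29 °C list 69.2% of the member sites were intronic, against 48.1% of all, and none was in a promoter.

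The name of a site was not always the gene that holds it. Of the 100 member sites of the 4 °C list inside an annotated transcript, 32 lay in the transcript of another gene, or 32.0%, against 27.1% over all sites. In 26 of these 32 the other gene was also of these families, 23 of them at the Col4a1 and Col4a2 pair. The other 6 lay in transcripts of Asap2, Cpsf3, Rbms1, Deptor and Tbc1d2b. The reverse also occurred: another 38 sites of the 4 °C list lay inside transcripts of these families but carried the name of a gene outside them, and so were not members. Of these, 5 were in Col4a2, 4 in Itga1, 4 in Lamc3 and 3 in Adamts2.

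The comparison of temperatures asked how binding in the cold differed from that at thermoneutrality. HA-RevErba signal at member sites of the 4 °C list had a median of 7.81 FPKM in the cold and 2.48 at 29 °C, against WT medians of 1.30 at 4 °C and 1.21 at 29 °C. The median ratio of 4 °C to 29 °C was 2.94, with members from 0.521 to 16.0, and over all sites of the list it was 3.05. The interval lay above 1 at 148 of 156 member windows, or 94.9%, against 95.4% of all windows, so these families did not stand apart in that count. Windows of this list had to reach 3 FPKM over WT and 4 times WT at 4 °C, which favours ratios above 1. Median ratios were 3.47 for integrin, 3.28 for laminin, 2.92 for collagen and 2.51 for Adamts sites.

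Sites in both lists reached these limits at each temperature in the window of that temperature's list. The lists shared 34 member sites, with the windows overlapping by at least 1 bp and in fact by 122 bp or more. They made up 21.8% of the 4 °C members (15.6 to 29.1), against 14.9% over all 4 °C sites, and 87.2% of the 29 °C members (72.6 to 95.7), against 76.5% over all 29 °C sites. Collagen genes held 16 of them, laminin and Adamts genes 7 each and integrin genes 4. HA-RevErba medians in their 4 °C windows were 14.7 FPKM in the cold and 8.44 at 29 °C, and those of WT were 1.58 at 4 °C and 1.41 at 29 °C. In these windows 30 of the 34 also reached both limits at 29 °C, against 1432 of 1670 over all shared sites. The median ratio was 1.66, and 1.88 over all shared sites. By family it was 1.85 for laminin, 1.69 for Adamts, 1.57 for collagen and 1.05 for the 4 integrin sites. This order differs from that over the whole 4 °C list, where integrin sites were highest. The interval lay above 1 at 26 of the 34, or 76.5% (58.8 to 89.3), against 81.2% of all shared sites. The intervals of these shares count each site as independent, though several sites share a locus, so they may be too narrow.

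The WT pools give 2 other scales for the 29 °C pool, and they differ. Equal summed WT reads over all 4 °C windows would divide every ratio by 1.02. Equal WT reads over all shared windows would divide them by 1.44, or shift them by 0.53 on the log2 scale. With that factor the median ratio of the shared member sites was 1.15, and the interval lay above 1 at 9 of them. Among those that lost the call with a ratio still above 1 (1.04 to 1.29) were the sites of Adamts4, Adamts12, Adamts17, Itga6 and Col5a3, both of Adamts9, 2 each of Col4a2 and Col6a2, and 1 each of Col5a1 and Lamc1. In the member windows themselves WT reads had a 4 °C to 29 °C ratio of 1.03 (0.945 to 1.12) over the 4 °C list and of 1.25 (1.05 to 1.48) over the shared sites. Shared sites had to reach 4 times WT at 29 °C as well, which favours low WT signal there. Over all shared windows WT medians were 1.48 FPKM at 4 °C and 1.01 at 29 °C. Over all windows of the 4 °C list only they were 1.12 at 4 °C and 1.21 at 29 °C. Both lists were chosen against WT, so neither factor is free of that choice. All ratios in the rest of the text are per read of the pool.

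**Figure D2:**
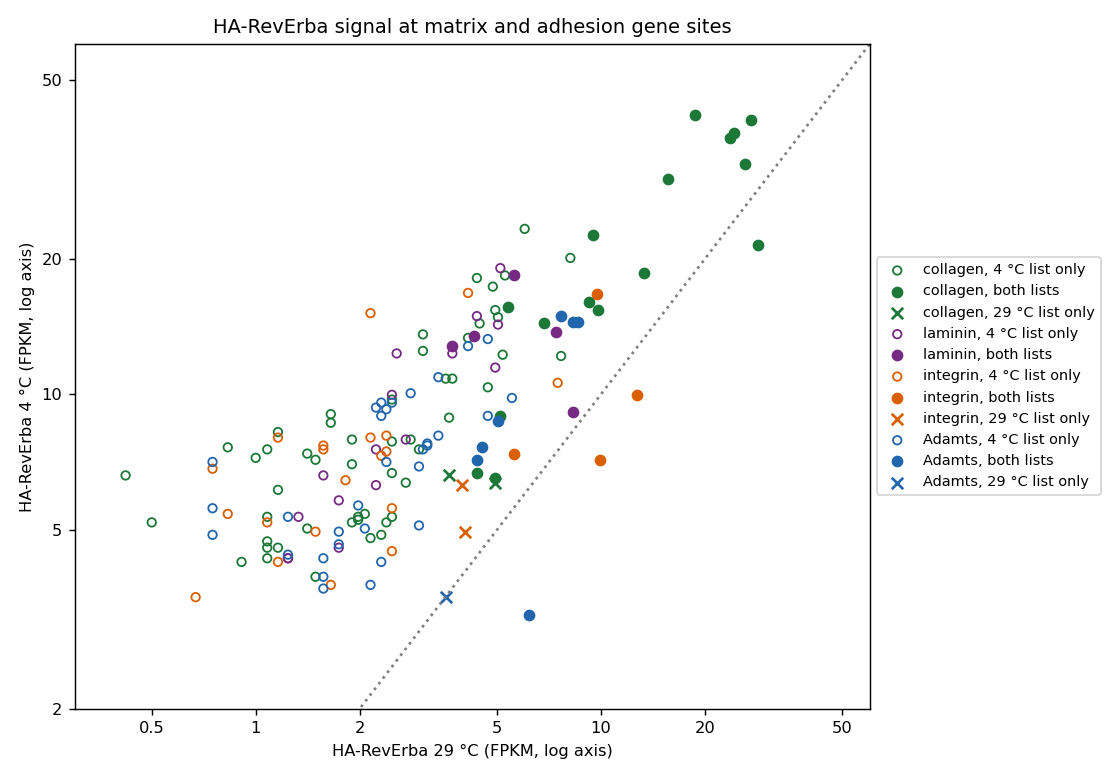
HA-RevErba signal at 4 °C (vertical axis) against that at 29 °C (horizontal axis), both in FPKM on log axes, for 157 of the member sites; colour gives the family, filled points are in both lists, open points in the 4 °C list only and crosses in the 29 °C list only. Most points lie above the dotted line of equal signal, while the filled points of Col5a1, Itgal, Itgb6 and Adamts15 lie below it.

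Type IV collagen had the largest group of sites. Col4a1 and Col4a2 encode the chains of the main collagen network of basement membranes, and their sites filled 221.4 kb of chromosome 8 (11171627 to 11393016, mm9), on both sides of the shared start shown above. All 26 sites of the 4 °C list in that span carried one of the 2 names. The interval of their ratio lay above 1 at each, as it did at 95.4% of all windows of the list. The ratios at -33.3 and 70.0 kb would fall below 1 with the WT factor of 1.44. No site lay in the gene that named it. The 17 sites named for Col4a2 were on the Col4a1 side, 14 of them in Col4a1 introns and 3 beyond the gene, and the 9 named for Col4a1 were all in Col4a2 introns. Counting the 5 with another gene's name, the Col4a2 transcript held 14 sites, as many as Col4a1. The nearest to the start lay 4.07 kb away, so none was at the promoter.

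The most heavily bound of them were intronic sites on the Col4a1 side. The site at -63.1 kb from the Col4a2 start (11249609 to 11249809, intron 2 of Col4a1) had 41.65 FPKM in the cold and 18.76 at 29 °C, with WT at 2.59 in the cold and 4.39 at 29 °C, a ratio of 2.22 (1.90 to 2.61). The site at -41.7 kb had 40.71 FPKM in the cold and 27.23 at 29 °C, with WT at 3.88 in the cold and 1.80 at 29 °C. At -33.3 kb the values were 32.40 FPKM in the cold and 26.16 at 29 °C, with WT at 3.88 in the cold and 2.20 at 29 °C. At 29 °C these 3 were again the highest of the locus, in another order, with the site at -41.7 kb first. On the Col4a2 side the strongest site, at 54.9 kb, had 30.04 FPKM in the cold and 15.64 at 29 °C, with WT at 2.22 in the cold and 2.20 at 29 °C. All 4 were in both lists.

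The sites of the locus in the 4 °C list only had at most 7.66 FPKM at 29 °C, against 9.22 or more at the 6 in both lists. The site at -60.2 kb, next to the strongest one, had 23.30 FPKM in the cold and 6.01 at 29 °C, a ratio of 3.88 (2.99 to 5.08), and was in the 4 °C list only. Ratios at the locus ran from 1.24 (1.07 to 1.44) at -33.3 kb to 16.0 (6.60 to 50.6) at -129.1 kb. The second of these is the largest among all members, and its 29 °C signal of 0.42 FPKM was below the 1.01 FPKM of WT. Summed over the 26 windows, HA-RevErba reads had a ratio of 2.27 (2.16 to 2.39) and WT reads one of 0.911 (0.766 to 1.08). The locus held 26.5% of all HA-RevErba reads in member windows at 4 °C and 26.4% at 29 °C. Its shares of the WT reads in these windows were close to that, 23.3% at 4 °C and 26.4% at 29 °C.

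**Figure D3:**
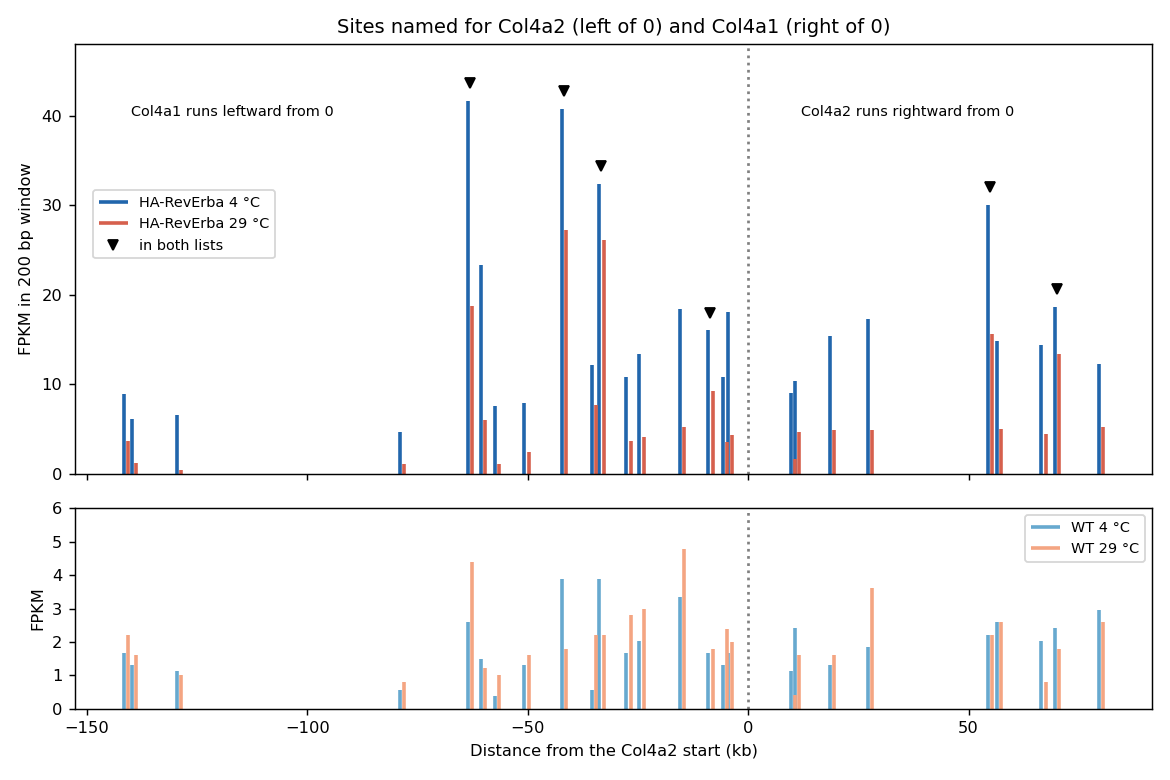
Signal in FPKM (vertical axes) at the 26 sites named for Col4a2 and Col4a1, by distance in kb from the Col4a2 start (horizontal axis), in the 2 HA-RevErba pools (upper panel) and the 2 WT pools (lower panel, another scale); triangles mark the 6 sites in both lists. HA-RevErba signal per read of the pool is higher at 4 °C at all 26 sites, as at 11080 of all 11227 windows of the 4 °C list. It runs from 4.71 to 41.65 FPKM at 4 °C, while no WT value exceeds 4.79 FPKM. The ratios at -33.3 and 70.0 kb would fall below 1 with the WT factor of 1.44.

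Laminins had 25 sites in the 4 °C list, of which 7 were in both lists. The beta chain genes Lamb1 and Lamb3 had 7 sites, none of them in the 29 °C list. Of all 11227 sites of the 4 °C list, 9557 were likewise absent from the 29 °C list. The alpha chain genes Lama4 and Lama5 had 7, of which 2, at Lama4, were shared.

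Lamc1, the gamma chain of most laminins, had 4 sites, of which 2 were shared. The site at -18.4 kb from Lamc1 (chromosome 1, 155198266 to 155198466) had 18.36 FPKM in the cold and 5.60 at 29 °C, with WT at 3.70 in the cold and 1.60 at 29 °C. Its ratio was 3.28 (2.50 to 4.36). The shared site in intron 1 of Lamc1 had 13.73 FPKM in the cold and 7.41 at 29 °C, with WT at 1.48 in the cold and 1.60 at 29 °C, a ratio of 1.85 (1.43 to 2.42). Both intervals lay above 1, and with the WT factor of 1.44 that of the intron 1 site, at 1.29, included 1. At Lamc3 the site in intron 3 had 9.11 FPKM in the cold and 8.32 at 29 °C, with WT at 0.75 in the cold and 2.20 at 29 °C. The interval of its ratio, 0.831 to 1.44, included 1.

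Lama4, the alpha chain of endothelial and adipocyte basement membranes, had 6 sites in 2 groups, upstream and in its first intron. The shared site at -69.6 kb had 13.50 FPKM in the cold and 4.29 at 29 °C, with WT at 2.59 in the cold and 1.01 at 29 °C. The shared site in intron 1 had 12.79 FPKM in the cold and 3.71 at 29 °C, with WT at 2.04 in the cold and 1.01 at 29 °C. Its ratio of 3.45 (2.47 to 4.92) was the highest of the 34 shared member sites. Lamb3, an epithelial beta chain, had 4 sites within 13.4 kb, from 11.46 to 19.06 FPKM at 4 °C and from 4.37 to 5.11 at 29 °C. The strongest, in intron 3, reached a score of 38.1 (the score is the authors' own, which amounts to window reads for each 10 M reads pooled). Another of the 4 was in a Lamb3 exon. At Lamb1 the 3 sites had 6.28 to 12.32 FPKM at 4 °C and 2.23 to 3.71 at 29 °C.

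Type VI collagen had the next strongest sites of the collagens. Its chains form beaded filaments around cells. Col6a1 and Col6a2 lie next to each other on chromosome 10 and had 6 sites within 57.6 kb, all intergenic, of which 4 were in both lists. The site at -41.2 kb from Col6a2 (76127520 to 76127720) had 38.04 FPKM in the cold and 24.27 at 29 °C, with WT at 3.51 in the cold and 2.40 at 29 °C. The site at -25.3 kb had 37.10 FPKM in the cold and 23.61 at 29 °C, with WT at 2.22 in the cold and 1.80 at 29 °C. Both had a ratio of 1.57 (1.35 to 1.82 and 1.35 to 1.83). The sites at -18.9 and -51.2 kb were at 1.0 and 1.08 FPKM at 29 °C, each close to the WT value of 1.01 there, and at 7.22 and 5.34 FPKM at 4 °C. Col6a3 had 5 sites, none in the 29 °C list, as with 9557 of all 11227 sites of the 4 °C list. The one in a Col6a3 exon had 7.62 FPKM in the cold and 0.83 at 29 °C, with WT at 1.67 in the cold and 1.21 at 29 °C, and its ratio of 9.25 (4.82 to 19.9) was among the 4 highest of the members.

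Fibrillar collagens had sites at 7 of 11 genes, and 2 of these genes, Col5a1 and Col5a3, also at 29 °C. Col1a1, the main chain of type I collagen, had its stronger site at -22.7 kb, with 20.08 FPKM in the cold and 8.15 at 29 °C, and WT at 0.75 in the cold and 2.40 at 29 °C. That site was in the 4 °C list only. Col1a2 had 1 site, and Col3a1, of type III collagen, had 2, all with 29 °C signal of 1.08 to 1.49 FPKM. Type V collagen sets the width of collagen fibrils. In its chain Col5a1 the intron 4 site had 15.38 FPKM in the cold and 9.80 at 29 °C, with WT at 2.59 in the cold and 1.41 at 29 °C, a ratio of 1.57 (1.24 to 1.99). Col5a3 had 4 sites within 3.75 kb in its first intron, of which 2 were shared, with ratios of 1.75 and 1.53. Col27a1 had 3 sites, with up to 13.58 FPKM in the cold and 3.05 at 29 °C. None was in the 29 °C list, as with 9557 of all 11227 sites of the 4 °C list.

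Other collagens had fewer sites. Both multiplexins, collagens of basement membrane zones, had 5 sites at 4 °C with 1 of them shared, and each had another site in the 29 °C list only. The shared Col15a1 site, in intron 9 (chromosome 4, 47273515 to 47273715), had 22.59 FPKM in the cold and 9.47 at 29 °C, with WT at 1.48 in the cold and 2.20 at 29 °C, a ratio of 2.39 (1.92 to 2.99). One of the Col15a1 sites in intron 2 had 5.19 FPKM in the cold and 0.50 at 29 °C, below the WT value of 0.61, and the second highest ratio among members, 10.5 (4.57 to 29.6). The shared Col18a1 site, whose gene also encodes endostatin, had 6.52 FPKM in the cold and 4.94 at 29 °C, with an interval of 0.935 to 1.87. Among fibril-associated collagens 2 of 9 genes had a site, Col12a1 and Col14a1. No site was named for the 3 short-chain or the 4 transmembrane collagens.

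Integrin genes had the fewest sites, and those in both lists were at a laminin receptor, 2 beta chains and a leukocyte chain. All 3 laminin-binding alpha chains, Itga3, Itga6 and Itga7, had a site. The strongest was in intron 1 of Itga6, with 16.71 FPKM in the cold and 9.71 at 29 °C, and WT at 2.04 in the cold and 1.41 at 29 °C, a ratio of 1.72 (1.37 to 2.17). Itga1, a collagen receptor, had 3 intergenic sites with 5.42 to 7.46 FPKM at 4 °C and 0.83 to 2.39 at 29 °C. Itgb1, the most widely paired beta chain, had a shared site at -122.8 kb, with 7.38 FPKM in the cold and 5.60 at 29 °C and an interval of 0.955 to 1.83. A second Itgb1 site, in an exon, had 8.09 FPKM in the cold and 2.39 at 29 °C.

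The beta chains Itgb5, Itgb6 and Itgb8, which pair with the alpha v chain, had 8 sites at 4 °C, of which 1, at Itgb6, was in both lists. Itgb8 had 3, the strongest in intron 12 with 16.79 FPKM in the cold and 4.12 at 29 °C, and another, intergenic and 100.3 kb from the start, with a ratio of 9.22 (4.64 to 20.8). The site at -74.9 kb named for Itgb6 lay in intron 3 of Rbms1 and had 15.14 FPKM in the cold and 2.15 at 29 °C, with WT at 2.96 in the cold and 1.41 at 29 °C. The Itgb6 promoter site at -0.60 kb had 5.19 FPKM in the cold and 1.08 at 29 °C, with WT at 0.93 in the cold and 0.41 at 29 °C. The other promoter site of the set lay at -25 bp from the start of Itgb1bp1, whose product binds the tail of Itgb1, beside the bases shown above. It was annotated to the promoter of Cpsf3, an RNA-processing gene, and had 4.95 FPKM in the cold and 1.49 at 29 °C, with WT at 0.75 in the cold and 1.21 at 29 °C. Of the 7 leukocyte chains only Itgal had a site.

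Adamts proteases had sites at 12 of 19 genes, and Adamts-like proteins, which lack the protease part, at 1 of 5 (Adamtsl1, with 3 sites in the 4 °C list only). Adamts2, which trims procollagen, had 9 sites along 127.8 kb, 8 of them in its introns 2 and 3. They had 4.64 to 13.26 FPKM at 4 °C and 1.74 to 5.52 at 29 °C. None was in the 29 °C list, as with 9557 of all 11227 sites of the 4 °C list. Adamts15 had 7 and Adamts5 had 5, all 5 of the last intergenic and -360.7 to -241.8 kb from the Adamts5 start. Both encode proteases that cut proteoglycans. The highest ratio of the family was at a site -159.7 kb from Adamts3, with 7.07 FPKM in the cold and 0.75 at 29 °C, a ratio of 9.54 (4.81 to 21.5).

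The strongest Adamts site was in intron 8 of Adamts16, with 14.91 FPKM in the cold and 7.66 at 29 °C, with WT at 1.30 in the cold and 0.61 at 29 °C. Its ratio was 1.95 (1.51 to 2.52). Adamts9 had 2 shared sites, one at -4.72 kb with 14.44 FPKM in the cold and 8.32 at 29 °C, and one in intron 9 with 14.44 FPKM in the cold and 8.56 at 29 °C. Their ratios, 1.74 and 1.69, lay close together. The shared sites of Adamts4 (intron 1), Adamts12 (intron 2) and Adamts17 (intron 8) had 7.15 to 8.71 FPKM at 4 °C and 4.37 to 5.03 at 29 °C. The Adamts7-named site at a transcript end belonged to Tbc1d2b and had 7.54 FPKM in the cold and 3.05 at 29 °C.

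At 5 of the 34 shared sites the signal was lower in the cold than at 29 °C, with WT signal of at most 1.30 FPKM. The ratio was above 1 at the other 29, and at 1533 of all 1670 shared sites. The interval lay below 1 at 4 of the 5, or 11.8% of the 34 (3.30 to 27.5), against 2.75% of all shared sites. Of the 5 sites, those of Col5a1, Itgb6, Adamts15 and Itgal are described here. The Col5a1 site in intron 9 (chromosome 2, 27809549 to 27809749) had 21.42 FPKM in the cold and 28.55 at 29 °C, with WT at 1.30 in the cold and 0.61 at 29 °C, a ratio of 0.750 (0.638 to 0.882).

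The others described were weaker. The Itgb6 site in intron 1 had 7.15 FPKM in the cold and 9.96 at 29 °C, with WT at 1.12 in the cold and 1.01 at 29 °C, a ratio of 0.717 (0.540 to 0.949). The Adamts15 site in intergenic DNA, 193.2 kb from the start, had 3.23 FPKM in the cold and 6.18 at 29 °C, against 0.19 FPKM for WT in the cold and no WT read at 29 °C. Its ratio was 0.521 (0.347 to 0.773), the lowest among members, and the 6 other Adamts15 sites had ratios of 1.91 to 3.23. At Itgal the values were 9.97 FPKM in the cold and 12.67 at 29 °C, with WT at 0.56 in the cold and 1.01 at 29 °C. Its interval of 0.617 to 1.001 included 1 in the 4 °C window and lay below 1 in the 29 °C window (0.582 to 0.9503). At these sites either WT scale would lower the ratio further.

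**Figure D4:**
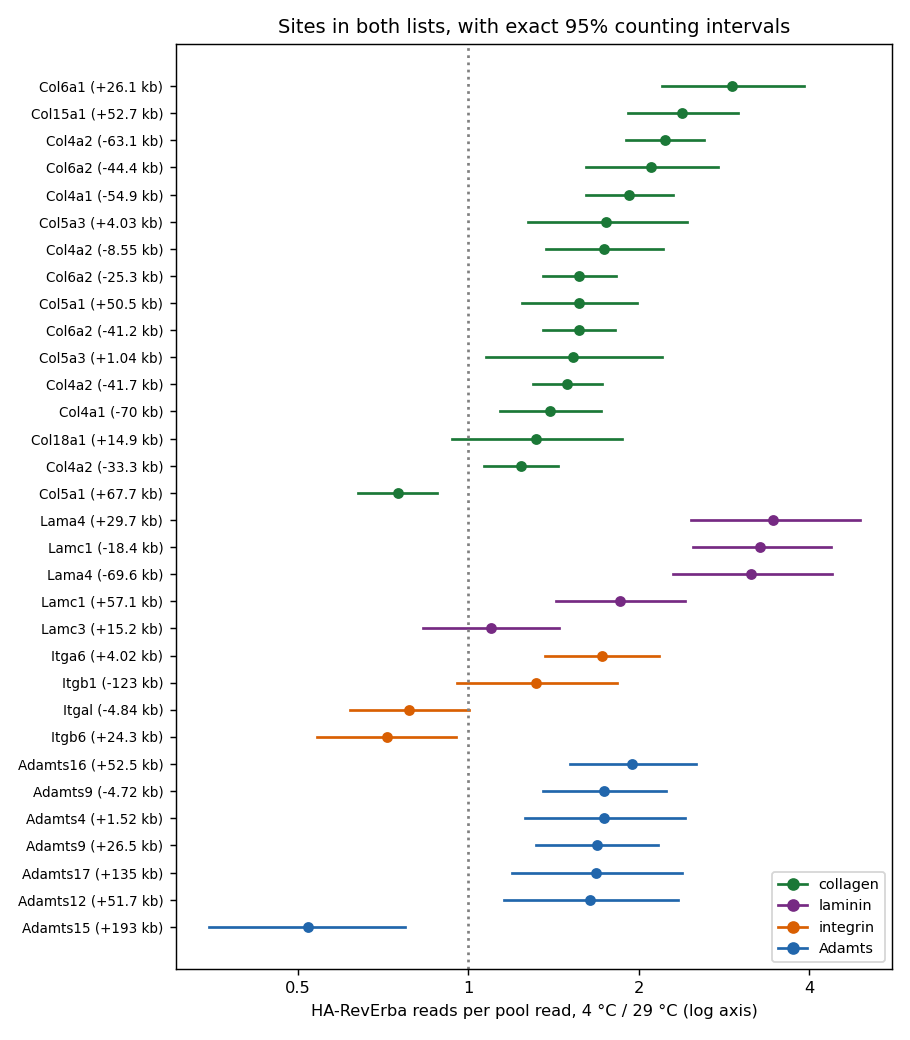
Ratio of HA-RevErba reads per pool read, 4 °C over 29 °C (horizontal log axis), with its exact 95% counting interval, at 32 of the member sites in both lists, labelled by named gene and distance to its TSS and coloured by family. The intervals lie right of the dotted line at 1 for 25 sites and left of it for Col5a1, Itgb6 and Adamts15; dividing by the WT factor of shared windows, 1.44, would put 5 more points left of it (Col18a1, Lamc3, Itgb1 and 1 site each of Col4a1 and Col4a2).

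Sites listed at 1 temperature only did not always lack signal at the other. Of the 122 member windows of the 4 °C list alone, 106 had more HA-RevErba than WT signal at 29 °C, beside 8011 of all 9557 such windows. Among the members the interval of this ratio lay above 1 at 49, or 40.2% (31.4 to 49.4), against 31.3% over all such windows. The range of 31.4 to 49.4 counts each of the 122 windows as independent, though they belong to 44 genes. It may be too narrow, so no difference is read from it. Both limits of the lists were reached at 29 °C by 3 of the 122, and by 96 of the 9557 of all. At these windows the medians were 7.42 FPKM in the cold and 2.23 at 29 °C for HA-RevErba and 1.12 at 4 °C and 1.21 at 29 °C for WT. The 5 windows of the 29 °C list alone had ratios of 0.998 at Adamts16, 1.23 at Itga6, 1.29 at Col15a1, 1.59 at Itgb6 and 1.82 at Col18a1. Their HA-RevErba signal at 4 °C was 2.39 to 3.83 times WT, under the limit of 4 times. WT medians in them were 1.67 FPKM in the cold and 0.61 at 29 °C, the same as over all windows of the 29 °C list only. The interval lay above 1 at 2 of these 5, or 40%, against 31.6% over all such windows. With the WT factor of 1.44 both of these intervals, at Col18a1 (1.26) and Itgb6 (1.10), included 1, and the ratios at Col15a1 (0.893) and Itga6 (0.851) fell below 1. Per read of the pool, none had less HA-RevErba signal at 4 °C beyond counting error. The members closest to the difference limit were an Adamts15 site, 3.04 FPKM over WT at 4 °C, and an Adamts12 site, 3.11 FPKM over WT at 29 °C.

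Sites were also found at other matrix and adhesion genes. In a list of 78 such genes (basement membrane linkers, matrix glycoproteins, lysyl oxidases, metalloproteases and their inhibitors, collagen-modifying enzymes and focal adhesion proteins), 45 had a 4 °C site, or 57.7%, against 44.5% of the genes of the 4 families and 21.8% of all protein-coding genes. At 29 °C 15 had a site, or 19.2%, against 20% of the family genes and 6.3% of all, and 31 had none in either list. Gene lengths were not matched here either. This list too was chosen with earlier results of these data known, so its shares are descriptions only. Of their 107 sites at 4 °C, 11 were in both lists, or 10.3%, against 21.8% of the family sites and 14.9% of all. The strongest site of each gene had a median ratio of 2.72, from 0.943 to 6.34, with 42 of 45 intervals above 1 and 0 below, beside 95.4% above 1 among all 11227 windows. The highest signal was at Mmp15, a membrane-bound metalloprotease, with 50.27 FPKM in the cold and 24.27 at 29 °C. Hspg2 and Nid1, which link collagen IV to laminin, had 16.40 and 10.83 FPKM at 4 °C and 5.52 and 4.37 at 29 °C. The collagen crosslinking enzyme gene Loxl4 had 22.04 FPKM in the cold and 23.37 at 29 °C.

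Promoters of the family genes were searched for AGGTCA, the half-site that many nuclear receptors bind. The RefSeq table for GRCm38.p6 gave 82 promoter windows for 76 of the 110 genes, each from 250 bases before to 50 after a start. AGGTCA was found on either strand in 10 of them, or 12.2%, against 16.3% of all 32851 windows. None of the 10 was among the 36 windows of the 31 genes with a site. The longer forms TAGGTCA, which contains AGGTCA, and TGGGTCA were in 1.22% and 3.66% of the family windows, against 2.61% and 3.98% of all. TGGGTCA was in 2 of the 36 windows of genes with a site and in 1 of the 46 of genes without. The split by site was not made over all genes, so no difference between genes with and without a site is read from these counts. A pair of GGTCA copies with 3 bases between was in none, against 0.067% of all. These windows cover hardly any of the member sites, which lie elsewhere, and a match is a run of letters and not a binding site.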

How the data were processed

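The deposited files were an aligner log for each of 12 libraries and 2 peak lists, 1 per temperature, made on pooled libraries per the file headers. The submitters' processing notes name Bowtie2 2.1.0, HOMER 4.10 and build mm9, without roles. The log counts deposited by the authors gave library depth, with 2.54% to 7.37% of reads not aligned. The FPKM deposited by the authors are densities in 200 bp windows with 0.01 added. All values were whole multiples of 1 step per pool (100% within 0.01), which gave reads and pool sizes, and 3 reads equal 0.235 to 0.598 FPKM. The peak score and the annotation (nearest gene, distance, class) deposited by the authors were used as given. The sources used here do not say whether starts count from 0 or 1. Columns with values of no sample of the series numbered 0.

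Sites were shared when windows overlapped by at least 1 bp, and shared sites were valued in the 4 °C window. Ratios and shares have exact Clopper-Pearson intervals at the 95% level, computed with scipy 1.17.1, and those of ratios were tested on simulated reads. Intervals of shares count each site or gene as independent, though sites of 1 gene share a locus. No molecular identifiers are given, so several reads may stem from 1 molecule, and intervals cover counting error only. Gene names, neighbours and start distances between genes came from GRCm38.p6 tables, with no coordinate moved between builds. The 49 gene names all matched, as did 5447 of the 5451 gene IDs of the 4 °C list. Members, roles and the list of 78 other genes were chosen with earlier results of these data known. Named were genes with a shared or 29 °C-only site or with 3 or more sites, the 5 highest-scoring sites per family, the 3 highest and lowest ratios, and all promoter, exon, UTR and transcript-end sites. Lists at stricter limits, other overlaps, scales, offsets and intervals were tried as alternatives. Sites of 1 gene are counted in the totals but are not reported or plotted here.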

Additional observations from a re-analysis of the deposited data

How the results depend on the processing

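No paired analysis was possible because values exist only for pools, so no library could be left out or blocked either. Member sites of the 4 °C list numbered 111 with at least 5 FPKM over WT, 56 with at least 8 times WT, 94 within 50 kb of the TSS and 30 within 10 kb, against 156 as deposited. Those of the 29 °C list numbered 24, 14, 25 and 7 in the same order, against 39. The median ratio of the 4 °C members, 2.94, became 2.04 with the 29 °C pool scaled to equal WT reads over shared windows, 2.41 with 1 FPKM added to both values and 4.29 with WT subtracted. That of the shared members, 1.66, became 1.15 with the shared-window scale and 1.75 with WT subtracted, and the count with an interval above 1 fell to 9, against 26 per read of the pool. With that scale 7 of the 37 single sites checked turned below 1: Col18a1 (0.915), Col4a1 (0.968), Col4a2 (0.859), Itgb1 (0.915), Lamc3 (0.760), and in 29 °C-only windows Col15a1 (0.893) and Itga6 (0.851). Another 16 kept their direction with an interval that then included 1, 13 kept their call, and Itgal was then below 1. With the scale of all 4 °C windows 36 kept their call and Itgal (0.772) again moved below 1. Which scale is right was not tested, and both come from windows chosen against WT signal. Added after seeing the data, leaving out the Col4a1 and Col4a2 locus gave 28 shared sites, medians of 2.90 and 1.66 and intervals above 1 at 122 sites of the list and 20 shared ones, and the 29 °C window gave a shared median of 1.57. The median member window held 99.5 reads at 4 °C and 30 at 29 °C.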
